A study of Mus musculus with 9 samples.

Results

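The genes described here are 55 genes of the cell cycle and of DNA replication, a list of known genes whose rule names the genes and uses no measured value, though the list was drawn up with earlier results of these data known. Of the 55, 54 have a probe set whose platform annotation names that gene and no other, out of 18194 genes with such a probe set in the whole series. A gene with several such probe sets was represented by the one with the highest mean over the 9 arrays. Of the 54, 53 reached a log2 value of at least 4, taken as background, on at least 3 of the 9 arrays and were tested, among 12009 genes tested in all. Ccnb1, which encodes cyclin B1, had no probe set that names it alone. Tyms, thymidylate synthase, lay at background on every array, with 3.03, 3.05 and 3.07 in adult fragments, 3.07, 3.06 and 3.07 in embryonic fragments and 3.12, 3.07 and 3.10 in the rest of brain. The other 3 Tyms probe sets lay lower still, so no level can be given for it.

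Expression was measured on 9 one-colour arrays of mouse brain, in 3 groups of 3. Adult fragments are microvascular fragments of mice aged 1 year on a mixed C57/SV129 background, of which replicates 1 and 3 were male and replicate 2 female. Embryonic fragments are the same vessel preparation from NMRI embryos at day 18.5, with no sex given, and embryonic rest of brain is the brain tissue of NMRI embryos of that day without the fragments. No group carries a named mutation or treatment; RNA came from a micro kit in both embryonic groups and from a mini kit in the adult group, so between adult and embryonic samples age, strain and kit cannot be told apart. The titles call the arrays of a group biological replicates, and whether animals were pooled is not given in the sources used here. A label of rest of brain replicate 3 gives another embryonic day than its other labels do, and the array was kept in its group. Fragments are a tissue fraction and not sorted cells, so in these bulk samples fewer cells of a type and less RNA per cell cannot be told apart.

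A cell that divides first licenses its replication origins by loading the MCM helicase, copies its DNA with polymerases fed by deoxynucleotide synthesis, and then separates the copies on the mitotic spindle. Cyclins bound to their kinases drive these steps in order, and most of the genes needed are transcribed in dividing cells and silent in resting ones. E2F factors switch on the replication genes before S phase, and the DREAM and MuvB complexes act on the later mitotic genes through the cell cycle homology element, often with NF-Y bound nearby. The vessels of the brain grow before birth by division of endothelial cells, which rest in the adult, while the progenitors of neurons divide in the brain tissue around them.

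The promoters of the genes are shown first, because the genes moved together and fall into a replication side and a mitosis side that carry different short words. RefSeq promoter windows of GRCm38.p6, each 300 bases long with 250 before the start of the gene and 50 from it on, were found for 44 of the 55 genes, 45 windows in all since Mcm7 has 2. The words searched on both strands were TTTGGCGC, TTTCCCGC and TTTCGCGC for E2F, TTTGAA and TTTAAA for the cell cycle homology element without its flanks, and CCAAT for NF-Y. An E2F word was found in 8 of 18 windows of the replication genes (44.4%), in 1 of 27 windows of the cyclin and mitosis genes (3.7%), and in 2.41% of 21263 promoter windows of protein-coding genes. The cell cycle homology word ran the other way, in 22.2% of the replication windows, in 21 of 27 cyclin and mitosis windows (77.8%), and in 5309 of the 21263 protein-coding ones. The NF-Y box was in 72.2% of the replication windows, in 66.7% of the cyclin and mitosis windows, and in 38.2% of the protein-coding ones. The words are short, E2F words can overlap each other on opposite strands, and a match is not a measured binding site.

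**Figure D1:**
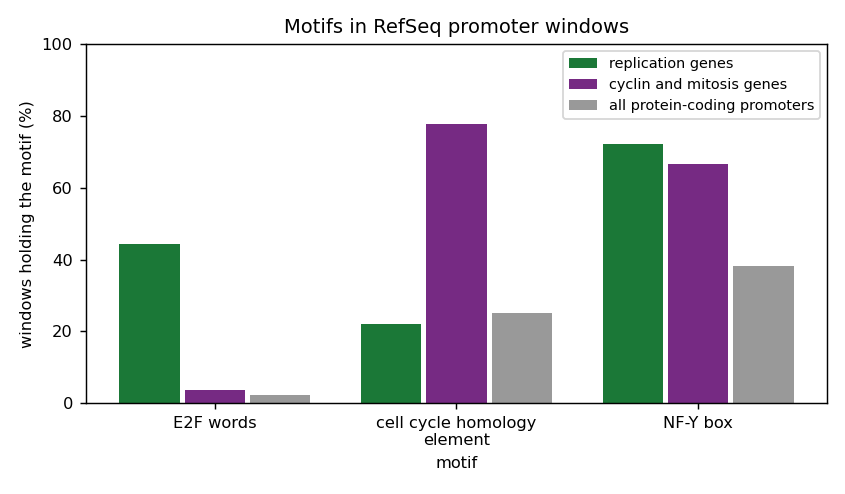
Percentage of 300-base RefSeq promoter windows that hold each motif, for 18 windows of replication genes, 27 of cyclin and mitosis genes and 21263 of protein-coding genes. E2F words stand out in the replication windows (44.4%) and the cell cycle homology word in the cyclin and mitosis windows (77.8%).

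The windows of 3 helicase genes and 3 mitotic genes show both patterns, with the words of the 3 kinds in capitals and the start of the gene at base 251 of each line, 5′ to 3′ on the strand of the gene. Mcm3 lies at chr1:20820263-20820562 on the minus strand, Mcm5 at chr8:75109259-75109558 on the plus strand and Mcm6 at chr1:128359656-128359955 on the minus strand. Cdk1 lies at chr10:69352863-69353162 on the minus strand, Top2a at chr11:99024140-99024439 on the minus strand and Cenpf at chr1:189688037-189688336 on the minus strand.
Mcm3: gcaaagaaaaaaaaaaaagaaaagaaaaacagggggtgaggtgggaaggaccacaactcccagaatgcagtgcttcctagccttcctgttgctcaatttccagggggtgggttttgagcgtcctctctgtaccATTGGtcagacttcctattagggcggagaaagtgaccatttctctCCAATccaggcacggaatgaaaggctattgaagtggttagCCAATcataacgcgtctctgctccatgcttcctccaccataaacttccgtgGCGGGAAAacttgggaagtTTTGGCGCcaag
Mcm5: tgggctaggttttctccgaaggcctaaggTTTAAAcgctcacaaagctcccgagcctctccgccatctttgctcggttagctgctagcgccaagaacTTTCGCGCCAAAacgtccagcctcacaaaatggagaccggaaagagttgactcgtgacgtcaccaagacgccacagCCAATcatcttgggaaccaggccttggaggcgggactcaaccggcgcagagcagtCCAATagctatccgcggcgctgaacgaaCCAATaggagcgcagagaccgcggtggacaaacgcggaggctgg
Mcm6: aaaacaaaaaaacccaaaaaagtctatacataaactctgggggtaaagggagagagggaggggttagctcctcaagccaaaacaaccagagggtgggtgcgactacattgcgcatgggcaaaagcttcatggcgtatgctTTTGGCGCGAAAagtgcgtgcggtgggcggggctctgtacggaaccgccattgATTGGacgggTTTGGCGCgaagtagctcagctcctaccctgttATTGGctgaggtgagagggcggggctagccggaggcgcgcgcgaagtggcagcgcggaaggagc
Cdk1: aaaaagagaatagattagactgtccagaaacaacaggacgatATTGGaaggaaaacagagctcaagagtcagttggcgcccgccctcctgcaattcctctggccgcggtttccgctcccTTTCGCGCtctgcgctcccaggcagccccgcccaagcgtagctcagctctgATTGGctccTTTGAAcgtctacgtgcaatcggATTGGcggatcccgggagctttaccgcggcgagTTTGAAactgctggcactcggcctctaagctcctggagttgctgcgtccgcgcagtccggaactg
Top2a: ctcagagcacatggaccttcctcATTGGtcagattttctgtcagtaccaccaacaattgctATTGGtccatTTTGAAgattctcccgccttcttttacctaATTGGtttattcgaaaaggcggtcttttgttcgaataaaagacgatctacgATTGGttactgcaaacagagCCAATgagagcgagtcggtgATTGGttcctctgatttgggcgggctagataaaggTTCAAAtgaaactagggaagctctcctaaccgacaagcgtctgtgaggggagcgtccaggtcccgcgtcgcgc
Cenpf: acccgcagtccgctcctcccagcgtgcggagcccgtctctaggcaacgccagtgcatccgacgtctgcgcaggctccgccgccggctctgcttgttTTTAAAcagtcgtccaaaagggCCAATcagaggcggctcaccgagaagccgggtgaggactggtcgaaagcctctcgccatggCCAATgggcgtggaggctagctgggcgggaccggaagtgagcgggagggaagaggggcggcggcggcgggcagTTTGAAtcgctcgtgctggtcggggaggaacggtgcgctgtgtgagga
In Mcm6, 2 of its 3 E2F words overlap on opposite strands 110 and 106 bases before the start, and the other is at 47 bases before. Cdk1, the kinase that starts mitosis, is the 1 cyclin or mitosis gene whose window holds an E2F word, beside 2 cell cycle homology words and 3 NF-Y boxes. Top2a, the topoisomerase that untangles chromosomes before they separate, has 6 NF-Y boxes and 2 cell cycle homology words, the nearer at 23 bases before its start. Cenpf, a protein of the outer kinetochore, has 2 of each.

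Seen over the 9 arrays, the genes were on in both embryonic groups and low in the adult vessels. All 53 tested genes lay at 4 or more on every embryonic array, whereas 28, 28 and 31 of them did so on the 3 adult arrays. Of the 53, 18 were under 4 on all 3 adult arrays, 11 on 1 or 2 of them, and 24 on none. The mean log2 value over the 53 genes was 5.44, 5.43 and 5.77 in adult fragments, 9.97, 9.99 and 10.13 in embryonic fragments, and 10.15, 10.12 and 9.99 in the rest of brain. Adult fragments sit apart from both embryonic groups, which overlap. Within groups, adult replicate 3 was the highest of its group for 35 of 53 genes, embryonic fragment replicate 3 for 37, and rest of brain replicate 3 was the lowest of its group for 38. The median standard deviation of a gene over the 3 arrays was 0.37 in adult fragments, 0.13 in embryonic fragments and 0.13 in the rest of brain.

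**Figure D2:**
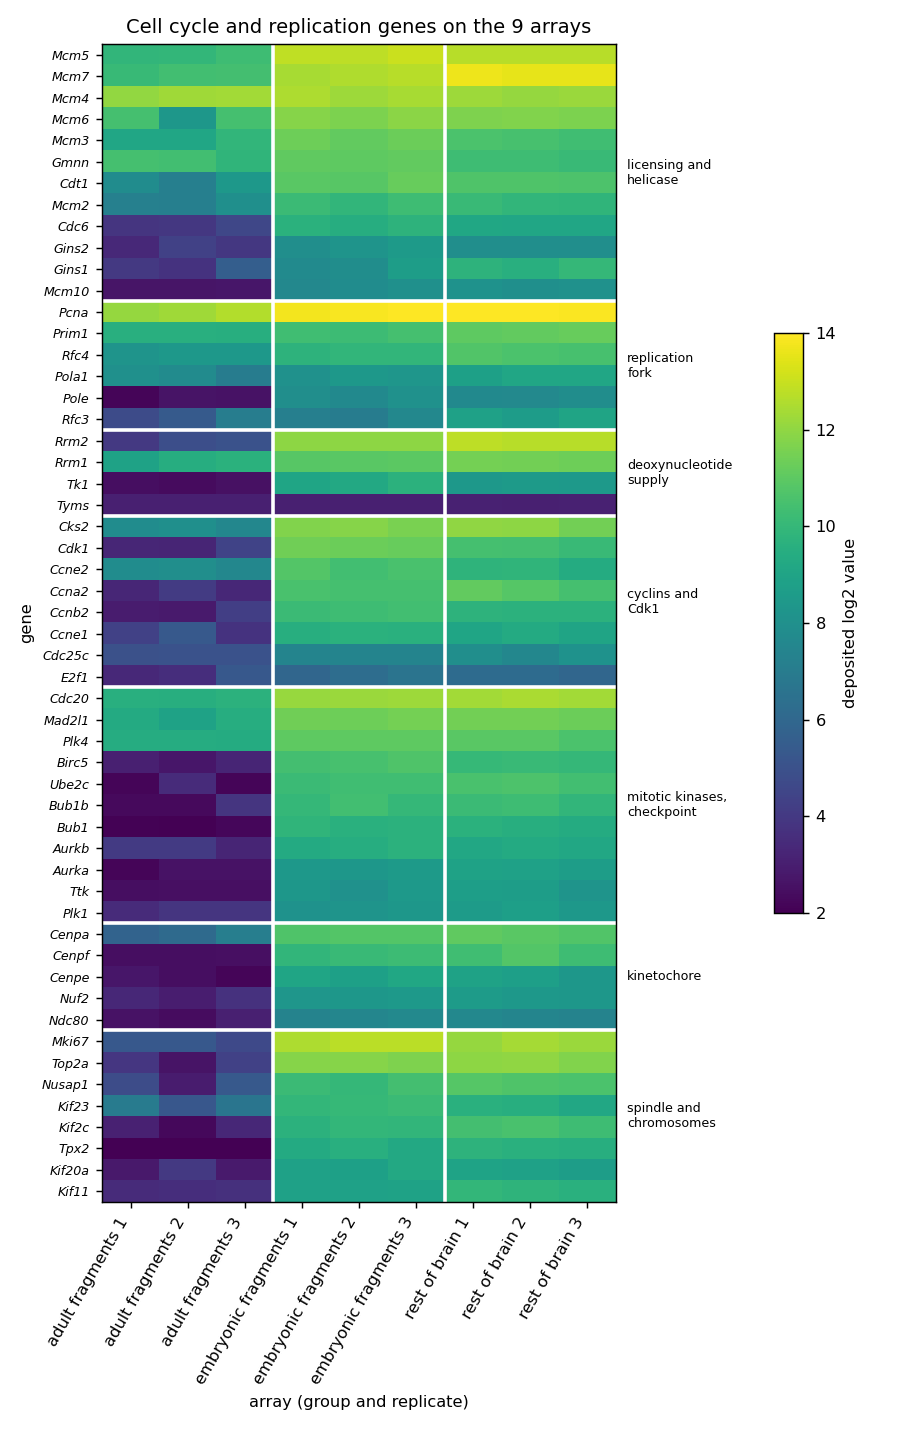
Deposited log2 value of each of 54 genes (rows, grouped by role) on each array (columns), from 2 (dark) to 14 (yellow). The 3 adult columns are dark for most mitotic genes, Mcm4 is as bright in them as in the embryonic ones, and Tyms is dark throughout.

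Vessel markers were high in the samples labelled as fragments. The 10 endothelial marker genes averaged 12.49 to 12.74 in adult fragments, 12.61 to 12.90 in embryonic fragments and 4.45 to 4.78 in the rest of brain, and pericyte and smooth muscle genes 12.91 to 13.01 in adult fragments, 11.22 to 11.67 in embryonic fragments and 8.55 to 8.95 in the rest of brain. Correlations of the deposited values were 0.978 to 0.993 between arrays of a group. They were 0.854 to 0.866 between adult and embryonic fragments and 0.672 to 0.709 between embryonic fragments and the rest of brain. Groups were compared with limma over all 9 arrays, a gene was called at a Benjamini-Hochberg adjusted p under 0.05 over the 12009 genes, and an adjusted p is from that fit unless an array left out, a block, another probe set or another setting is named beside it. Differences are on the log2 scale, given with their standard error and n = 3 per group, and a fold is an "at least" fold, against a value of 4, where a group was under 4 on all 3 arrays.

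The first comparison asks how the vessels of adult brain differ from those of the embryo. In adult fragments 52 of the 53 tested genes were lower than in embryonic fragments and 0 were higher, 49 of them by at least 1 on the log2 scale. Over all genes tested, 29.7% were called lower and 27.4% higher, and 15.3% were called lower by at least 1 on the log2 scale. The median difference of the 53 genes was -4.82, or -4.23 with genes at background in adults set to the bound, beside a median of -0.02 over all genes. The arrays of the groups overlapped for Mcm4 and Rfc3, and how often arrays overlap was not counted over all genes tested. For Mcm4 the test was not passed, and Rfc3, a subunit of the clamp loader that places Pcna on DNA, was lower although its arrays overlapped. With the number of the replicate as a block, 51 were lower.

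By role, the median difference was -1.51 for the 6 replication fork genes, -2.76 for the 12 licensing and helicase genes, -4.53 for the 8 cyclins, Cdk1 and their regulators, and -5.05 for the 5 kinetochore genes. It was -5.83 for the 11 mitotic kinase and checkpoint genes, -6.41 for the 8 spindle and chromosome genes and -6.89 for the 3 tested genes of deoxynucleotide supply. Taken as sides, the 21 replication genes had a median of -2.27 with 3 at background in adults, and the 32 cyclin and mitosis genes -5.79 (-4.99 at the bound) with 15 at background. With genes at background set to the bound, the medians were -4.39 for the kinetochore genes, -4.42 for the mitotic kinases, -5.62 for the spindle and chromosome genes and -5.34 for deoxynucleotide supply, and those of the other 3 roles did not move. The order among the cyclin, mitotic and deoxynucleotide roles therefore depends on values under background. These medians are descriptions of the lists, without a test between them.

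**Figure D3:**
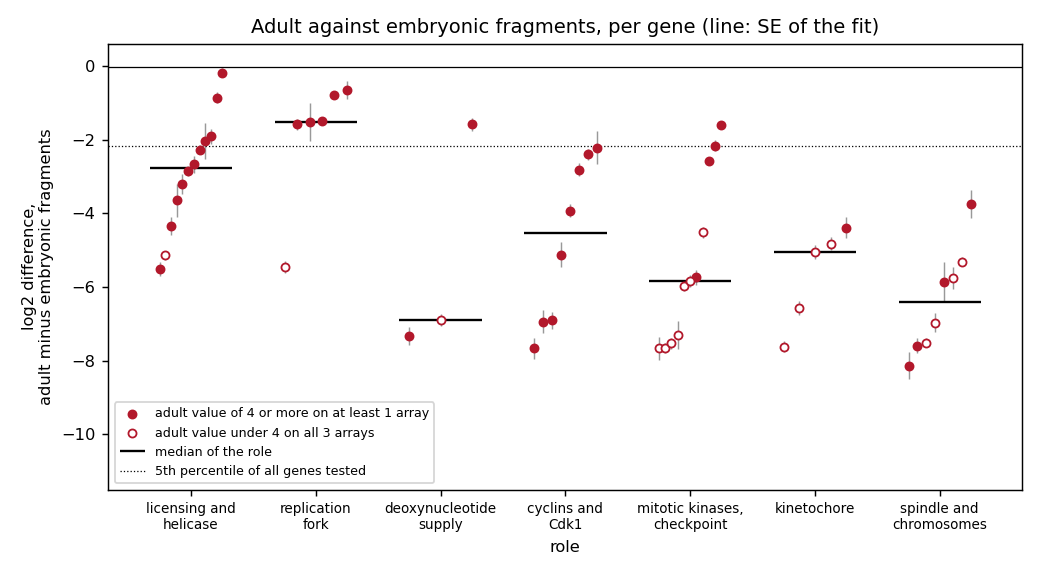
Log2 difference of adult minus embryonic fragments for the 53 tested genes by role, with the standard error of the fit as lines and role medians as bars. Filled points had an adult value of 4 or more on at least 1 array and open points none; the dotted line is the 5th percentile of all genes tested (-2.17), and Mcm4 at -0.18 is the point nearest 0.

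Among the licensing and helicase genes, 11 of 12 were lower in adult fragments. Cdc6, which loads the MCM helicase onto origins, had 3.85, 3.96 and 4.55 in adult fragments and 9.65, 9.49 and 9.75 in embryonic fragments. The adult arrays sat about background, 2 of them under it, and were well apart from the embryonic ones, with a difference of -5.51 ± 0.18 (adjusted p = 6.89e-08). Mcm10, an initiation factor that joins the helicase at the origin, had 2.66, 2.70 and 2.72 in adult and 7.60, 7.84 and 8.04 in embryonic fragments. All 3 adult arrays were at background, so Mcm10 was at least 14.2-fold lower (adjusted p = 1.58e-08). Geminin, encoded by Gmnn, which keeps origins from being licensed again, had 10.46, 10.36 and 9.86 in adult and 11.08, 11.03 and 11.12 in embryonic fragments. Its level stayed far above background in adults and the groups did not overlap, with the smallest called difference of the role, -0.85 ± 0.16 (adjusted p = 0.00163).

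On the probe sets used, the 6 subunits of the MCM ring itself were not silent in adult fragments. Mcm2, Mcm3, Mcm5, Mcm6 and Mcm7 averaged 7.45, 9.36, 10.03, 9.76 and 10.30 there, and their differences from embryonic fragments were -2.67, -1.91, -2.86, -2.03 and -2.27, all called. Mcm6 was uneven among adults, with 10.46, 8.35 and 10.46 in adult fragments against 11.84, 11.63 and 11.90 in embryonic fragments, the female replicate 2 being the low one. Mcm4 had 12.04, 12.28 and 12.32 in adult and 12.50, 12.24 and 12.43 in embryonic fragments. Those arrays overlap and the difference of -0.18 ± 0.12 was not called (adjusted p = 0.247). Its probe set is of a kind that shares probes with other transcripts, and a second one, specific to the gene by its identifier, gave 8.97, 9.22 and 9.60 in adult and 10.60, 10.49 and 10.85 in embryonic fragments. By that probe set Mcm4 was lower, at -1.38 (adjusted p = 0.000201), so the call for this gene depends on the probe set. The Mcm5 probe set used is also of the kind that shares probes. A probe set specific to Mcm5 by its identifier was dimmer, with a mean of 7.46 over the 9 arrays, and gave -5.45. The adult level of Mcm5 and the size of its difference therefore depend on the probe set.

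The 6 replication fork genes were all lower in adult fragments, most of them moderately. Pole, the catalytic subunit of the leading strand polymerase, had 2.16, 2.62 and 2.57 in adult and 7.94, 7.70 and 8.07 in embryonic fragments. It was the fork gene at background on every adult array and was at least 14.9-fold lower (adjusted p = 3.41e-08). Pcna, the clamp that holds polymerases on DNA and also serves in repair, had 12.08, 12.27 and 12.60 in adult and 13.80, 13.87 and 14.03 in embryonic fragments. It was high in both without overlap, at -1.58 ± 0.14 (adjusted p = 2.52e-05). Pola1 and Prim1, the polymerase and primase subunits that start each strand, differed by -0.65 and -0.78. Pola1 had 8.04, 7.77 and 7.03 in adult and 8.07, 8.40 and 8.33 in embryonic fragments, and the nearest arrays of the groups almost touch. Its call (adjusted p = 0.0464) and that of Rfc3 (-1.52, adjusted p = 0.0318) were the weakest. Rfc3 had 4.73, 5.39 and 7.10 in adult and 7.18, 7.04 and 7.58 in embryonic fragments, with adult replicate 3 inside the embryonic range. Leaving out 1 array ended the call of Pola1 for 8 of the 9 arrays, all but adult replicate 1 (adjusted p = 0.0521 to 0.124), and that of Rfc3 for adult replicate 1 or 2, any embryonic fragment array or rest of brain replicate 1 (adjusted p = 0.0502 to 0.0966). The Pola1 call was also lost under 7 other settings, among them no filter on low values, another normalization and the replicate block (adjusted p = 0.0551 to 0.145), and that of Rfc3 under 3, no filter and the 2 groups fitted alone with or without the block (adjusted p = 0.0614 to 0.0918). Rfc4, another subunit of the clamp loader, was lower, at -1.501 ± 0.11.

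In deoxynucleotide supply the fall was uneven. Rrm2, the small ribonucleotide reductase subunit that is made in S phase, had 4.01, 4.87 and 5.04 in adult and 11.98, 11.96 and 11.98 in embryonic fragments. The groups are far apart and the adult arrays just above background, at 161-fold lower (adjusted p = 6.61e-08). Tk1, the thymidine kinase of dividing cells, had 2.44, 2.37 and 2.55 in adult and 9.05, 9.25 and 9.73 in embryonic fragments, and was at least 40.6-fold lower (adjusted p = 1.60e-08), at background in adults. Rrm1, the large subunit of the same reductase, had 8.91, 9.45 and 9.68 in adult and 10.86, 10.94 and 10.997 in embryonic fragments. It stayed well expressed in adults, with a difference of -1.58 ± 0.18 (adjusted p = 0.000111) beside -7.33 for its partner.

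All 8 tested cyclins and regulators were lower in adult fragments by at least 1 on the log2 scale. Cdk1 had 3.31, 3.24 and 4.39 in adult and 11.39, 11.33 and 11.20 in embryonic fragments. Replicates 1 and 2 of the adults lay at background and the 2 groups were apart by far, with a fitted difference of -7.66 ± 0.28 (adjusted p = 1.31e-07) that leans on those background values. Ccnb2, a mitotic cyclin, had 2.91, 2.86 and 4.22 in adult and 10.19, 10.28 and 10.34 in embryonic fragments. It too had 2 of 3 adult arrays at background and differed by -6.94 ± 0.32 (adjusted p = 5.04e-07). Ccna2, the cyclin of S and G2 phase, differed by -6.91 ± 0.23. The cyclins of S phase entry diverged on the probe sets used, Ccne1 with 4.30, 5.35 and 3.77 and Ccne2 with 7.82, 7.94 and 7.54 in adult fragments, against 9.53, 9.65 and 9.62 and 10.80, 10.39 and 10.56 in embryonic fragments. Ccne2 thus stayed clearly above background on every adult array, as did Cks2, a small subunit of the cyclin kinases (7.83, 7.99 and 7.55 in adult and 11.75, 11.83 and 11.58 in embryonic fragments). The Ccne1 probe set used, at -5.13, is of the kind with shared probes. A dimmer one, specific to Ccne1 by its identifier, gave -2.89, beside -2.81 for Ccne2. How far the falls of the 2 cyclins differ therefore depends on the probe set. E2f1, a transcription factor that switches on S phase genes, had 3.36, 3.56 and 5.30 in adult and 5.94, 6.27 and 6.64 in embryonic fragments. It was low in both, and adult replicate 3 stood above the other adults, for a difference of -2.21 ± 0.46 (adjusted p = 0.00315), the smallest of the role. Cdc25c, the phosphatase that activates Cdk1, was lower, at -2.40 ± 0.14.

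All 11 mitotic kinase, checkpoint and anaphase genes were lower in adult fragments, 7 of them at background on every adult array. Ube2c, the ubiquitin enzyme of the anaphase-promoting complex, had 2.17, 3.47 and 2.18 in adult and 10.17, 10.34 and 10.31 in embryonic fragments, and was at least 77.3-fold lower (adjusted p = 2.65e-07). Bub1, a checkpoint kinase at the kinetochore, had 2.08, 1.94 and 2.22 in adult and 9.85, 9.63 and 9.72 in embryonic fragments, and was at least 53.3-fold lower (adjusted p = 2.19e-09). Neither gene was above background in any adult sample on these probe sets. A dimmer Bub1 probe set, with 2.85, 2.96 and 2.92 in adult and 2.94, 2.95 and 5.46 in embryonic fragments, was under 4 on 5 of these 6 arrays and gave -0.87 without a call (adjusted p = 0.312). Birc5, the survivin subunit of the complex that carries the kinase Aurkb, was at least 93.3-fold lower, Bub1b at least 69.9-fold lower, and the kinases Aurka, Ttk and Plk1 at least 21.4-fold lower, at least 19.8-fold lower and at least 18.8-fold lower. Aurkb had 4.02, 4.03 and 3.26 in adult and 9.36, 9.46 and 9.70 in embryonic fragments. Cdc20, Mad2l1 and Plk4 were the exceptions in level. Plk4, the kinase that starts centriole duplication, had 9.44, 9.43 and 9.39 in adult and 11.01, 11.02 and 11.03 in embryonic fragments, tight groups without overlap and the smallest difference of the role, -1.60 ± 0.11 (adjusted p = 6.09e-06). Cdc20, the activator of the anaphase-promoting complex, had 9.59, 9.53 and 9.69 in adult and 12.13, 12.21 and 12.22 in embryonic fragments, and Mad2l1, its checkpoint inhibitor, 9.36, 8.93 and 9.49 in adult and 11.40, 11.36 and 11.51 in embryonic fragments. The probe sets of Plk4 and Cdc20 are of the kind with shared probes.

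All 5 kinetochore genes were lower in adult fragments and 4 were at background on every adult array. Cenpf had 2.42, 2.46 and 2.496 in adult and 9.92, 10.11 and 10.22 in embryonic fragments, and Cenpe, a motor protein of the kinetochore, 2.71, 2.46 and 2.14 in adult and 9.07, 8.82 and 9.14 in embryonic fragments. They were at least 67.9-fold lower and at least 32.2-fold lower (adjusted p = 4.64e-09 and 3.73e-08), with adults at background throughout. Ndc80 and Nuf2, which form the complex that grips microtubules, were at least 11.3-fold lower and at least 20.9-fold lower. Cenpa, the histone variant that marks centromeres in resting cells too, had 5.82, 6.15 and 7.13 in adult and 10.70, 10.77 and 10.80 in embryonic fragments. It was the one kinetochore gene above background in adults and had the smallest fitted difference, -4.39 ± 0.29 (adjusted p = 4.29e-06).

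All 8 spindle and mitotic chromosome genes were lower in adult fragments. Top2a had 3.91, 2.62 and 4.34 in adult and 11.81, 11.80 and 11.66 in embryonic fragments. It had the largest fitted difference of all 53 genes, -8.13 ± 0.37 (adjusted p = 5.01e-07), with 2 of the 3 adult arrays at background. Mki67, the antigen by which dividing cells are stained, had 5.32, 5.31 and 4.63 in adult and 12.52, 12.76 and 12.76 in embryonic fragments. Low but above background in every adult sample, it was 193-fold lower (adjusted p = 1.89e-08). Tpx2, which builds spindle microtubules, had 1.86, 1.87 and 1.88 in adult and 9.34, 9.58 and 9.22 in embryonic fragments, and was at least 41.6-fold lower. Kif11, Kif2c and Kif20a, motor proteins of the spindle, were at least 29.5-fold lower, at least 58-fold lower and at least 31.5-fold lower. The probe sets used for them are of the kind with shared probes. A dimmer Kif2c probe set, specific to the gene by its identifier, gave -2.03. Another Kif11 probe set gave -4.93, but a further one gave 0.08 without a call (adjusted p = 0.893 in a fit over all probe sets). The size of the Kif2c fall and the call of Kif11 therefore depend on the probe set. Nusap1, a spindle protein, varied most among adults, with 4.77, 2.92 and 5.36 in adult fragments against 10.18, 10.01 and 10.42 in embryonic fragments. Kif23, a motor of cell division after mitosis, had 6.97, 5.28 and 6.67 in adult and 9.92, 10.02 and 10.20 in embryonic fragments, where replicate 2 was the lowest adult array for both of these genes. Its difference was the smallest of the role, -3.74 ± 0.38 (adjusted p = 5.59e-05).

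The markers of other cell types differed in part between adult and embryonic fragments. Endothelial markers had a median difference of -0.07 between adult and embryonic fragments, with 2 of 10 higher and 4 lower. Pericyte and smooth muscle markers, whose levels are given above, had 6 of 10 higher and 1 lower in adult fragments. Markers of neural progenitors, which divide in the embryo, averaged 4.19 to 4.61 in adult and 6.66 to 7.64 in embryonic fragments, with 7 of 10 tested lower and Dlx2 at background in both. Neuron markers averaged 3.96 to 4.72 in adult and 6.42 to 7.48 in embryonic fragments, with 5 of 8 lower and 1 higher. Oligodendrocyte precursor markers averaged 4.81 to 5.16 in adult and 5.09 to 5.83 in embryonic fragments, with 2 of 6 lower. Fibroblast markers averaged 8.03 to 8.48 in adult and 8.56 to 9.03 in embryonic fragments, with 2 of 6 higher and 3 lower. Of 3 erythroid genes tested, Alas2 and Epor were at background in adult fragments with means of 8.90 and 6.44 in embryonic fragments, and Hbb-y averaged 10.89 in adult and 8.06 in embryonic fragments. The erythroid markers Hbb-bh1, Hba-x and Klf1 were under 4 on all 9 arrays. Microglial and macrophage markers averaged 12.09 to 12.77 in adult and 11.54 to 13.25 in embryonic fragments, with 0 of 8 higher and 1 lower. The part of these cells in the fall of the cell cycle genes was not tested.

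The second comparison sets embryonic vessels against the embryonic brain they were taken from, at the same age, strain and kit. The genes were about as high in the fragments as in the tissue around them: 7 of 53 were higher in embryonic fragments, 11 lower and 35 not called, with a median difference of 0.02. Over all genes tested, 28.9% were called higher and 37.2% lower, with a median of -0.10, so the shares of the 53 genes, 13.2% higher and 20.8% lower, were both under those of all genes. For 50 of the 53 genes the difference was under 1 on the log2 scale, and 3 called genes were lower by more. Over all genes tested, 23.7% were called lower by at least 1, and the share higher by at least 1 was not counted. In the same samples the neural progenitor markers averaged 6.66 to 7.64 in embryonic fragments and 11.62 to 11.80 in the rest of brain, with a median difference of -4.58 and 10 of 10 lower. Neuron markers averaged 6.42 to 7.48 in embryonic fragments and 12.54 to 12.90 in the rest of brain, with 8 of 8 lower, and oligodendrocyte precursor markers 5.09 to 5.83 in embryonic fragments and 9.72 to 10.12 in the rest of brain, with 6 of 6 lower. Fibroblast markers averaged 8.56 to 9.03 in embryonic fragments and 10.12 to 10.29 in the rest of brain, with 5 of 6 lower. Microglial and macrophage markers averaged 11.54 to 13.25 in embryonic fragments and 9.19 to 9.40 in the rest of brain, with 8 of 8 higher, and embryonic fragment replicate 1 was the low one. The 3 erythroid genes averaged 7.51, 7.43 and 8.47 in embryonic fragments and 5.06, 5.51 and 5.62 in the rest of brain. Hbb-y and Epor were higher in embryonic fragments, and Alas2 went the other way, at -1.23 without a call. Embryonic fragment replicate 3, the highest of its group for 37 of the 53 cell cycle genes, was also highest for the erythroid, pericyte and smooth muscle, microglial and fibroblast means. It was not the highest for the endothelial, neural progenitor, neuron and oligodendrocyte precursor means. The part of these cells in the embryonic values was not tested, and which cells of the fragments carry the cell cycle genes was not tested.

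**Figure D4:**
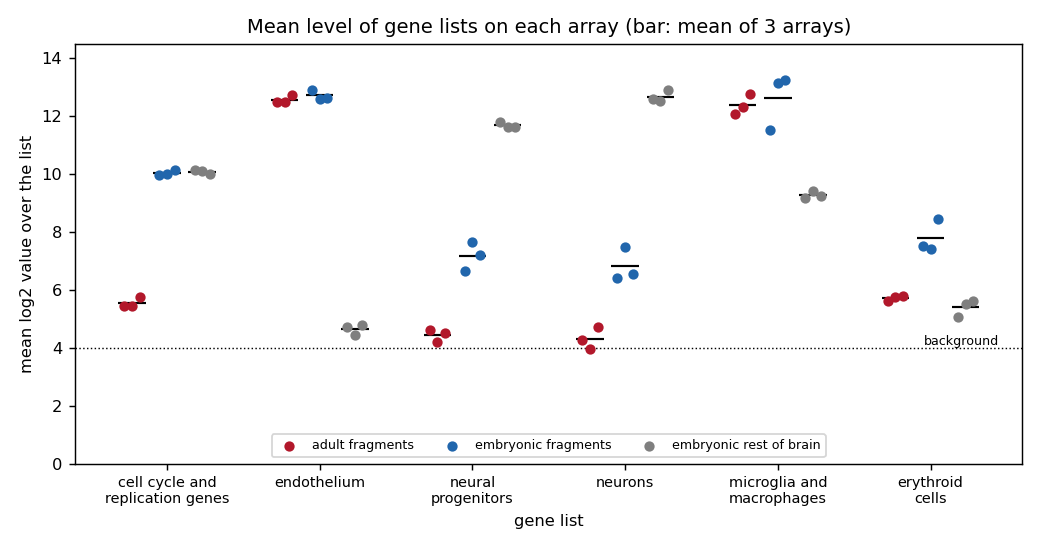
Mean log2 value over each gene list on every array (points, 3 per group) with the group mean (bar), for the 53 tested cell cycle and replication genes and 5 lists of cell type markers. Cell cycle genes lie at 9.97 to 10.15 on all 6 embryonic arrays, where the progenitor, neuron and endothelial lists differ widely between fragments and rest of brain.

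The calls of this comparison came from the fit without a block. In some alternatives the titles' replicate numbers were taken to pair the embryonic samples, although the titles do not state a pairing. With the number as a block and the 2 groups fitted alone, 11 genes were higher and 13 lower. With the block over all 9 arrays it was 7 and 10. Leaving out 1 array gave 5 to 9 higher and 6 to 13 lower, and it was 6 lower without embryonic fragment replicate 1 or without rest of brain replicate 1. The calls of 8 genes, Gmnn, Mcm3, Mcm7, Gins1, Ccne2, Tk1, Prim1 and Rfc4, were kept under every alternative run for them. The other 10 were lost under at least 1 alternative. With no filter on low values the calls of Cdc6, Pola1, Rfc3 and Rrm1 were lost (adjusted p = 0.0535 to 0.0668), and with arrays centred on their medians that of Rrm1 (adjusted p = 0.055). The arrays, blocks and probe sets that ended a call are given with each gene.

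**Figure D5:**
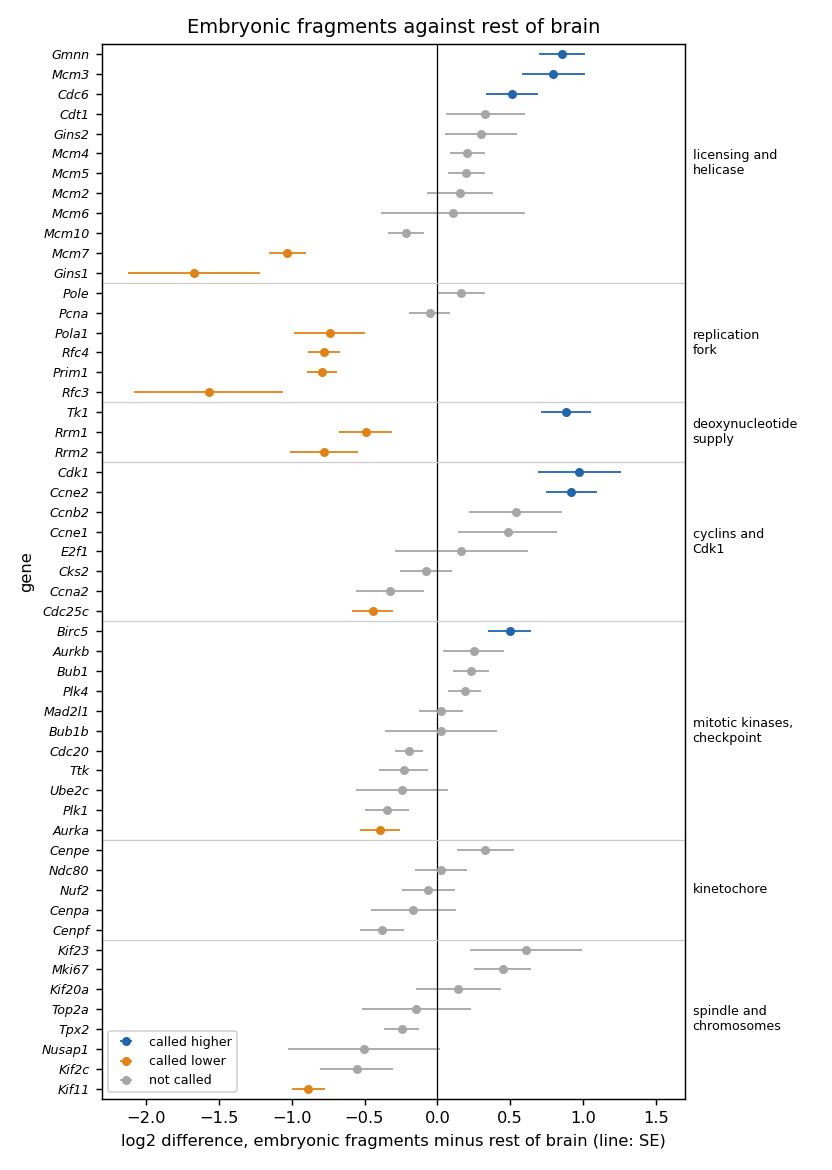
Log2 difference of embryonic fragments minus rest of brain (points) with the standard error of the fit (lines) for 53 genes grouped by role. Most points lie within 1 of 0, the 7 genes called higher are spread over 4 roles, and 4 of 6 replication fork genes are called lower.

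Licensing and helicase genes went both ways, with 3 of 12 higher (25%) and 2 lower (16.7%) in embryonic fragments. Both shares were under those of all genes tested, 28.9% and 37.2%. Geminin (Gmnn) had 11.08, 11.03 and 11.12 in embryonic fragments and 10.26, 10.26 and 10.14 in the rest of brain, and Mcm3 had 11.37, 11.14 and 11.32 in embryonic fragments and 10.62, 10.51 and 10.32 in the rest of brain. Neither overlaps, and they were higher by 0.86 ± 0.16 and 0.79 ± 0.22 (adjusted p = 0.00115 and 0.0101). Cdc6 had the smallest called difference of the role, 0.51 ± 0.18 (adjusted p = 0.0318), and lost the call without embryonic fragment replicate 1 or 3 or any rest of brain array (adjusted p = 0.0661 to 0.0959). Gins1, a subunit of the complex that activates the helicase, had 7.72, 7.90 and 8.67 in embryonic fragments and 9.74, 9.58 and 9.97 in the rest of brain. All fragments were below all rest of brain arrays, with replicate 3 the nearest, for a difference of -1.67 ± 0.45 (adjusted p = 0.0102). Gins2, another subunit, was not called at 0.30. Mcm7 had 12.41, 12.58 and 12.70 in embryonic fragments and 13.69, 13.54 and 13.56 in the rest of brain, and was 2.04-fold lower (adjusted p = 9.99e-05). The ring subunits differed in direction, Mcm3 at 0.79 and Mcm7 at -1.03, with Mcm2, Mcm4, Mcm5 and Mcm6 at 0.15, 0.20, 0.20 and 0.11, none of them called. The probe sets of Mcm3 and Mcm7 are both of the kind with shared probes.

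The fork genes were the role with the most genes lower in embryonic fragments, 4 of 6 (66.7%), at a median of -0.76. Over all genes tested 37.2% were lower, and deoxynucleotide supply had the same share as the fork genes, 2 of 3. Rfc3 had 7.18, 7.04 and 7.58 in embryonic fragments and 8.87, 8.62 and 9.02 in the rest of brain, and Prim1 had 10.31, 10.22 and 10.45 in embryonic fragments and 11.03, 11.11 and 11.22 in the rest of brain. Fragments were lower without overlap in both, at -1.57 ± 0.51 and -0.79 ± 0.10 (adjusted p = 0.024 and 0.000125). Rfc4 differed by -0.78 ± 0.11. Pola1 had 8.07, 8.40 and 8.33 in embryonic fragments and 8.81, 9.09 and 9.12 in the rest of brain, and was lower, at -0.74 ± 0.24 (adjusted p = 0.0246). Rfc3 lost its call when embryonic fragment replicate 1 or 2 was left out, or rest of brain replicate 1 or 3 (adjusted p = 0.0591 to 0.0736), and Pola1 without embryonic fragment replicate 1 and also without rest of brain replicate 2 or 3 (adjusted p = 0.0721 to 0.077). Pcna and Pole were not called, at -0.05 and 0.17. In deoxynucleotide supply, Tk1 had 9.05, 9.25 and 9.73 in embryonic fragments and 8.39, 8.55 and 8.45 in the rest of brain and was higher by 0.88 ± 0.17 (adjusted p = 0.00157). Rrm2 went the other way with 11.98, 11.96 and 11.98 in embryonic fragments and 12.82, 12.70 and 12.73 in the rest of brain, lower, at -0.78 ± 0.24 (adjusted p = 0.0171). Rrm1 was lower, at -0.49 ± 0.18 (adjusted p = 0.0398). The Rrm2 call ended when rest of brain replicate 1 was left out (adjusted p = 0.0532) and the Rrm1 call without any 1 of the 6 embryonic arrays (adjusted p = 0.0679 to 0.106). A second Rrm1 probe set gave -0.72 without a call.

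Of the 32 cyclin and mitosis genes, 3 were higher and 3 lower in embryonic fragments (9.38% each), and 26 were not called. Over all genes tested the shares were 28.9% and 37.2%. Cdk1 had 11.39, 11.33 and 11.20 in embryonic fragments and 10.47, 10.40 and 10.13 in the rest of brain. It was the largest positive difference of the 53 genes, 0.97 ± 0.28 (adjusted p = 0.0139), without overlap, and without rest of brain replicate 3 the adjusted p was 0.0527. Ccne2 had 10.80, 10.39 and 10.56 in embryonic fragments and 9.80, 9.83 and 9.37 in the rest of brain, and was higher by 0.92 ± 0.18 (adjusted p = 0.00153). Birc5 was higher by 0.49 ± 0.15 (adjusted p = 0.0151), with 10.43, 10.53 and 10.67 in embryonic fragments and 10.05, 10.13 and 9.97 in the rest of brain. Without embryonic fragment replicate 3 its adjusted p was 0.0552. Kif11 had the largest negative difference of these genes, with 8.88, 8.85 and 8.92 in embryonic fragments and 9.93, 9.78 and 9.59 in the rest of brain, all fragments below all of the others, and a difference of -0.89 ± 0.11 (adjusted p = 0.000117). Its second probe set gave -0.84 without a call (adjusted p = 0.0838), and another was called lower, at -3.14. Cdc25c and Aurka were lower, at -0.44 ± 0.14 and -0.40 ± 0.14 (adjusted p = 0.0209 and 0.0326), on 7.40, 7.39 and 7.43 and 8.38, 8.35 and 8.52 in embryonic fragments and 7.91, 7.54 and 8.10 and 8.90, 8.87 and 8.66 in the rest of brain. Leaving out embryonic fragment replicate 1 or 2, or the first of the rest of brain arrays, ended both calls, and leaving out the third of those arrays ended that of Cdc25c and the second that of Aurka (adjusted p = 0.0505 to 0.0974). With the replicate number as a block over all 9 arrays, Aurka was not called (adjusted p = 0.0526). None of the 5 kinetochore genes was called in the main fit, and Mki67 and Top2a, the usual markers of dividing cells, were at 0.45 and -0.14 without a call. Mki67 was called higher under 5 of 21 alternatives, and Cenpf lower under 4 of 20. Top2a and Cenpa were each called higher under 2 of 21, on another probe set. Kif2c was called lower under 9 of 21, Plk1 lower under 6 and Ccnb2 higher under 6.

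Adult fragments set against the embryonic rest of brain shared their arrays with both comparisons above. They had 51 genes lower, all 51 by at least 1 on the log2 scale, and 0 higher, where 42.9% of all genes tested were called lower and 33.1% higher. Of all genes tested, 29.2% were called lower by at least 1. The median difference was -4.86 (-4.45 at the bound), beside -0.17 over all genes. The 2 genes not called were of licensing. Gmnn had 10.46, 10.36 and 9.86 in adult fragments and 10.26, 10.26 and 10.14 in the rest of brain, a difference of 0.00 ± 0.16, and Mcm4 differed by 0.03 ± 0.12. The arrays of both genes overlap between these groups.

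Within their roles, Top2a (-8.28 ± 0.37), Rrm2 (-8.11 ± 0.24), Cenpf (at least 88.2-fold lower) and Ube2c (at least 91.4-fold lower) had the largest fitted differences of adult fragments against the rest of brain. Cenpf and Ube2c have only a bound, so they are not ranked against other genes, and Mki67, above background on every adult array, differed by -7.14 ± 0.19. Top2a had 11.97, 12.03 and 11.71, Rrm2 12.82, 12.70 and 12.73, Cenpf 10.34, 10.78 and 10.28 and Ube2c 10.55, 10.63 and 10.37 in the rest of brain, all above 10 where the adult arrays were near or under background. Tpx2 was at least 49.3-fold lower on 9.75, 9.60 and 9.53 in the rest of brain, Bub1 at least 45.5-fold lower, Cenpe at least 25.7-fold lower, Tk1 at least 22-fold lower and Pole at least 13.3-fold lower. Ccna2 had 3.31, 4.08 and 3.35 in adult fragments and 11.13, 10.84 and 10.48 in the rest of brain, for a difference of -7.23 ± 0.23, and Cdk1 differed by -6.68 ± 0.28. Mcm10 was at least 16.5-fold lower, and Gins1 had 4.01, 3.76 and 5.57 in adult fragments, with replicate 3 the highest, and differed by -5.31 ± 0.45. Rfc3, with adults again uneven, differed by -3.09 ± 0.51 (adjusted p = 0.00051). The smallest fitted differences among called genes of each role were -1.12 for Mcm3, -1.39 for Pola1, -2.08 for Rrm1, -1.90 for Ccne2, -1.41 for Plk4, -4.55 for Cenpa and -3.13 for Kif23. All 7 stayed above background on every adult array. On another probe set the calls against the rest of brain were not made for Cenpa (-0.22, adjusted p = 0.648), Kif23 (-0.26, adjusted p = 0.273), Bub1 (-1.33, adjusted p = 0.107) and Top2a (0.037, adjusted p = 0.928), each on a dimmer probe set near background.

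Genes next to these in the pathways, taken from lists of known genes, were read in the same fit. Of 43 other mitosis genes tested, 40 were lower (93%) in adult than in embryonic fragments and 2 higher (4.65%), at a median of -3.41. Over all genes tested, 29.7% were lower and 27.4% higher. Cep55, which acts in the last step of cell division, and Cdca5, which guards sister chromatids, had 3.39, 4.39 and 3.06 and 2.24, 2.68 and 2.66 in adult fragments, against 11.29, 11.27 and 11.46 and 9.99, 10.27 and 10.21 in embryonic fragments. They differed by -7.73 ± 0.31 and were at least 71.3-fold lower. Pttg1, the securin that holds back sister separation, was the opposite, with 13.91, 13.91 and 13.35 in adult and 11.42, 11.64 and 11.58 in embryonic fragments, 4.52-fold higher (adjusted p = 1.05e-05). Bub3, a checkpoint protein, was higher by 0.32 ± 0.09. Of 32 other replication genes 21 were lower (65.6%) and 3 higher (9.38%), at a median of -0.92. Uhrf1, which copies DNA methylation at the fork, and Chaf1b, a histone chaperone of the fork, differed by -5.18 ± 0.42 and were at least 7.59-fold lower. Orc2, a subunit of the origin recognition complex, and Rpa1, which coats single-stranded DNA, were higher by 1.07 ± 0.11 and 0.49 ± 0.10.

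Between the embryonic groups the same lists had calls in both directions, at shares near or under those of all genes tested (28.9% higher and 37.2% lower). Of the other mitosis genes 5 were higher in embryonic fragments than in the rest of brain (11.6%) and 13 lower (30.2%). Ncaph, a condensin subunit, and Anln, which acts at the cleavage furrow, were higher by 1.502 ± 0.23 and 1.29 ± 0.27. Racgap1, a partner of Kif23, and Cdc25b, a phosphatase of Cdk1, were lower, at -1.21 ± 0.28 and -1.13 ± 0.19. Of the other replication genes 4 were higher (12.5%) and 12 lower (37.5%). Timeless, of the fork protection complex, had 10.29, 10.22 and 10.09 in embryonic fragments and 8.67, 8.72 and 8.81 in the rest of brain and was higher by 1.47 ± 0.17, and Pole2, a polymerase subunit, by 0.59 ± 0.12. Dut, which clears dUTP, and Pole4 were lower, at -1.41 ± 0.14 and -1.08 ± 0.14. Against the rest of brain, adult fragments had 37 of 43 other mitosis genes lower (86%) and 2 higher (4.65%), beside 42.9% and 33.1% of all genes tested. Cdca5 and Aspm, a spindle pole protein, were at least 67.7-fold lower and at least 77.3-fold lower, and Pttg1 and Bub3 higher by 1.66 and 0.43. Of the other replication genes 22 were lower (68.8%) and 4 higher (12.5%). They were led by Uhrf1 at -5.47 and Chaf1b, at least 13.4-fold lower, and by Timeless at 1.44 and Rfc1, a clamp loader subunit, at 0.74.

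The regulators upstream, which are the G1 cyclins, their inhibitors and the E2F and pocket protein families, followed other patterns gene by gene. Over all genes tested, 27.4% were called higher and 29.7% lower in adult than in embryonic fragments. The shares were 28.9% and 37.2% in embryonic fragments against the rest of brain, and 33.1% and 42.9% in adult fragments against it. All 8 G1 cyclins and kinases were lower in adult than in embryonic fragments and 0 higher, at a median of -1.59, and none of them was at background in adults. Cdk4, the partner of the D cyclins, had 9.54, 9.08 and 10.17 in adult fragments, 12.24, 12.19 and 12.31 in embryonic fragments and 13.31, 13.32 and 13.32 in the rest of brain, with no overlap among the 3 groups. It was 6.27-fold lower in adult than in embryonic fragments, and 2.1-fold lower in embryonic fragments than in the rest of brain. Cyclin D1, encoded by Ccnd1, had 10.40, 9.61 and 10.60 in adult fragments, 12.91, 12.85 and 12.34 in embryonic fragments and 10.04, 10.09 and 9.71 in the rest of brain, so embryonic vessels were above both others. It was 5.65-fold lower in adult than in embryonic fragments and 6.75-fold higher in embryonic fragments than in the rest of brain, and Ccnd3 was 4.19-fold higher in embryonic fragments than in the rest of brain. Ccnd2 was the D cyclin that was lower in embryonic fragments than in the rest of brain, at -0.96 ± 0.24, and adult fragments were 7.33-fold lower than the rest of brain. Between embryonic fragments and the rest of brain 4 of the 8 were higher (50%) and 3 lower (37.5%). Between adult fragments and the rest of brain it was 0 and 4 (50%). Both shares of genes lower were near those of all genes tested.

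Of the 6 CDK inhibitors tested, 2 were higher (33.3%) and 1 lower (16.7%) in embryonic fragments than in the rest of brain. Over all genes tested the shares were 28.9% and 37.2%, so these counts are a description of a small list. Cdkn2b, an inhibitor of Cdk4 and Cdk6, had 10.005, 9.69 and 10.002 in adult fragments, 10.86, 10.43 and 10.66 in embryonic fragments and 4.39, 4.06 and 3.31 in the rest of brain. Both vessel groups were high and the rest of brain at or near background, a difference of 6.73 ± 0.26 for embryonic fragments (adjusted p = 4.77e-08). Cdkn1a, which encodes p21, had 11.40, 11.78 and 10.24 in adult fragments, 11.82, 11.82 and 11.80 in embryonic fragments and 8.06, 8.18 and 7.72 in the rest of brain. It followed the same order and was 14.2-fold higher in embryonic fragments than in the rest of brain, with no call between adult and embryonic fragments (-0.68). Cdkn1b, which encodes p27, had 11.37, 11.76 and 10.89 in adult fragments, 10.24, 10.21 and 10.05 in embryonic fragments and 11.24, 11.31 and 11.17 in the rest of brain. It was lowest in embryonic vessels, higher in adult fragments by 1.17 ± 0.20 (adjusted p = 0.00103) and lower than the rest of brain, at -1.07 ± 0.20. It was the 1 inhibitor higher in adult than in embryonic fragments, whereas 3 were lower, with Cdkn2d at -1.86 ± 0.32 and Cdkn1c at -1.34 ± 0.18. Between adult fragments and the rest of brain 2 were higher and 2 lower (33.3% each). The first were Cdkn2b and Cdkn1a at 5.98 and 3.15, and the second Cdkn2d and Cdkn1c at -1.77 and -0.91. Cdkn2a was under 4 on all arrays.

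Of 16 pocket protein, E2F and MuvB genes tested, 4 were higher (25%) and 9 lower (56.2%) in adult than in embryonic fragments. Over all genes tested the shares were 27.4% and 29.7%. The repressors E2f8 and E2f7 had 4.56, 4.62 and 4.87 and 5.002, 4.96 and 4.21 in adult fragments, against 8.81, 9.003 and 9.10 and 8.64, 8.64 and 8.30 in embryonic fragments, and differed by -4.29 ± 0.12 and -3.80 ± 0.22. Rb1, the retinoblastoma protein that holds E2F back in resting cells, had 12.89, 12.38 and 12.90 in adult fragments, 11.56, 11.91 and 11.36 in embryonic fragments and 12.57, 12.74 and 12.41 in the rest of brain. Embryonic vessels were below both others, and adult fragments were higher than they by 1.11 ± 0.19 (adjusted p = 0.00117). Tfdp2, a partner of E2F, was higher in adult fragments by 0.99 ± 0.11. Between embryonic fragments and the rest of brain 2 were higher (12.5%), Rbl1 and E2f8 at 0.39 and 0.35. In the other direction 3 were lower (18.8%), led by Rb1 and Tfdp2 at -0.96 and -0.60. Adult fragments against the rest of brain had 4 higher (25%) and 10 lower (62.5%). Lin54, a MuvB subunit that binds DNA, and Tfdp2 were at 0.73 and 0.39, and E2f8 and E2f7 at -3.94 and -3.61. E2f4, Lin52 and Mybl2 were under 4 on all arrays.

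For 38 of the genes more than 1 probe set names the gene alone, and for none of them were 2 probe sets called in opposite directions in any comparison. Some differed in call or size. The Top2a probe set used had 11.81, 11.80 and 11.66 in embryonic fragments and 11.97, 12.03 and 11.71 in the rest of brain, whereas a dimmer one had 5.38, 5.72 and 4.95 in embryonic fragments and 3.84, 4.06 and 3.23 in the rest of brain and was called higher, by 1.64 (adjusted p = 0.00215). A dimmer Cenpa probe set, with 5.35, 5.76 and 4.11 in embryonic fragments and 4.06, 4.05 and 3.76 in the rest of brain, was called higher by 1.12 (adjusted p = 0.0395). Both dimmer probe sets lie close to background in all groups. In a fit over all probe sets, dimmer ones of Kif2c, Tpx2 and Cdc20 were called lower in embryonic fragments than in the rest of brain, at -1.48, -0.87 and -0.43. A dimmer Aurkb probe set was called higher there, at 0.43. The probe sets used for these genes were not called. Another Kif11 probe set had 5.16, 5.39 and 4.69 in adult fragments, 4.50, 5.25 and 5.24 in embryonic fragments and 8.93, 8.09 and 7.41 in the rest of brain, so that adult and embryonic fragments overlapped there, unlike on the probe set used. That probe set was called lower in embryonic fragments than in the rest of brain, at -3.14, beside -0.89 on the probe set used. The probe sets used for 25 genes are of the kind whose probes may be shared with other transcripts.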

How the data were processed

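Expression in 9 samples of mouse brain, 3 in each of 3 groups, was read from the authors' processed table. The deposited log2 values, 1 for each probe set on each array, came from GCRMA 2.6.0 run by the authors under R 2.4.1, according to the submitters' processing notes. GCRMA removes background by base composition and normalizes by quantiles, so a change in total RNA per cell cannot be seen. That the scale is log2 was read from the range of the values. Neither scanner output nor scan dates were used here, and the number of arrays limits the precision.

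Of 45101 probe sets, 34958 name 1 gene, 932 name several and 9211 are unnamed here. The 18194 genes were each represented by the probe set of the highest mean, symbols were looked up by Entrez identifier (34754 probe sets found, 0 symbols changed), and 12009 genes at 4 or more on at least 3 arrays were tested. No pair of arrays was identical and 0 per-sample columns were left unused. All 9 arrays entered 1 model of limma 3.58.1 under R 4.3.3, fitted with lmFit and moderated with eBayes, whose tests are 2-sided. The model was first tested on simulated data. Promoter windows came from RefSeq, and figures were drawn with matplotlib 3.10.9.

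The members, roles and lists were chosen with earlier results of these data known, so their counts are descriptions. In each role and comparison, values were given for the 2 called genes with the largest difference in each direction and the 1 with the smallest. From each list of other genes, the 2 called genes with the largest difference in each direction were named. Further genes named in a role or group were chosen to account for all members, after their values were seen.

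Deviations from group means of embryonic fragments and rest of brain correlated at 0.194, 0.199 and 0.217 for replicates 1, 2 and 3. Arrays of unlike numbers were at -0.21 to -0.02. The numbers, taken from the titles, paired the 2 groups in the alternatives with a block only, and the main fit held no block. Between adult and embryonic fragments the correlations were 0.03, -0.08 and 0.21 for like numbers. Adult replicate 2 and embryonic fragment replicate 1 also reached 0.21, and no pairing was assumed. Alternatives changed the filter, low values, normalization, array weights, samples in the fit, the block, the probe set and the arrays left out.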

Additional observations from a re-analysis of the deposited data

How the results depend on the processing

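Under every alternative, 0 genes were higher in adult than in embryonic fragments, and 0 in adult fragments than in the rest of brain. The genes lower in adult fragments numbered 44 to 52 against embryonic fragments and 41 to 51 against the rest of brain over all alternatives. The lowest counts came without probe sets that share probes or with the second probe set, where 44 and 46 genes could be tested. Leaving out 1 array gave 50 to 51 and 51 lower, with medians of -4.89 to -4.67 and -4.99 to -4.76. Of 52 calls against embryonic fragments 49 were kept in every alternative, all but Bub1, Pola1 and Rfc3, and of 51 against the rest of brain 47, all but Bub1, Kif23, Cenpa and Top2a. The Kif11 probe set on which adult and embryonic fragments overlapped was not read in any alternative. The median against embryonic fragments was -4.11 with values under 4 set to 4, -3.57 with an offset on low values, -3.83 without probe sets that share probes and -3.95 with the second probe set, and against the rest of brain -4.45, -3.80, -4.26 and -4.26 in that order. For the embryonic groups, 8 of 18 calls were kept in every alternative; 12 genes were higher and 14 lower with only the 2 groups fitted, and 11 and 13 with the replicate block added to that fit. With the replicate block 51 genes were lower against embryonic fragments (50 with the 2 groups alone) and 51 against the rest of brain. Leaving out 1 array gave 5 to 9 higher, 6 to 13 lower and a median of -0.072 to 0.052. Between embryonic fragments and the rest of brain, Top2a turned to 1.64 and Cenpa to 1.12 without probe sets that share probes and with the second probe set. Under the same settings Top2a turned to 0.037 and Mcm4 to -1.14 between adult fragments and the rest of brain. For these, a different probe set is read. Cyclic loess moved the median of all genes between adult fragments and the rest of brain to -0.03, beside -0.17. Background correction from scanner files was not run, and values under 4 limit what can be said of 18 genes in adult fragments.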
